A study of Mus musculus with 12 samples.

Results

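The genes described here are Cd79a, Cd79b, Ms4a1, Cd22, Jchain, Mzb1 and Pax5, which mark B cells and the plasma cells that form from them. They were taken by their symbols from the 21960 genes listed for each of 12 mouse mammary tumors, and each of the 7 had 1 entry. The tumors came from female C57BL/6 mice that carry the polyoma virus middle T antigen (PyMT) under the mouse mammary tumor virus promoter, which drives the oncogene in mammary epithelium. The design asked what the chemotherapeutic doxorubicin (DOX) and an antibody against the checkpoint receptor PD-1 do to such tumors, alone and together.

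There were 4 groups of 3 tumors each. The IgG1 group received a control antibody and the anti-PD-1 group the blocking antibody, both from a tumor diameter of 0.6 cm, with a first dose of 20 mg/kg and later doses of 10 mg/kg. The DOX/IgG1 and DOX/anti-PD-1 groups started at 1 cm and received 5 mg/kg DOX weekly, with 10 mg/kg of antibody a day later. The protocol puts the later antibody doses without DOX on days 6, 12 and 18, while the labels give weekly treatment over 5 weeks for all groups. No age is given. Comparisons of a group given DOX with a group not given DOX therefore also differ in the starting size, the first antibody dose and, by the protocol, the antibody schedule, and these cannot be told apart from DOX. RNA came from whole snap-frozen tumors, so fewer B lineage cells and less RNA per cell cannot be told apart in these values. The labels do not say whether the tumors of a group grew in separate mice, and p-values then measure only the spread between these tumors. Levels are given in TPM, a unit of relative transcript abundance, which accounts for transcript length, and the depth of each library is unknown because the files give no counts.

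B cells recognise antigen through a surface immunoglobulin, which signals through the paired chains encoded by Cd79a and Cd79b. Ms4a1 encodes CD20, a membrane protein of mature B cells, and Cd22 encodes a lectin that restrains signaling from the receptor. Pax5 encodes the transcription factor that holds cells in the B lineage and is turned off when they become plasma cells. Plasma cells secrete antibody. Jchain encodes the chain that joins secreted IgM and IgA into multimers, and Mzb1 encodes a chaperone of the endoplasmic reticulum that helps antibody to be assembled. In mammary tissue, plasma cells that make IgA gather near the glands during lactation, and the receptor encoded by Pigr carries the antibody through the epithelium into milk.

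Of the 84 values of these genes (7 genes in 12 tumors), 37 were listed at 0. Cd22 and Pax5 were above 0 in every tumor. Jchain was listed at 0 in 1 tumor, Cd79b and Ms4a1 in 8 tumors each, Cd79a in 9 and Mzb1 in 11. A tumor had between 3 and 6 of the 7 genes above 0, and DOX/anti-PD-1 replicate 2 was the tumor with 6. A value of 0 may be a failed estimate at these levels. Over all listed genes, 2490 had a median between 1 and 5 TPM, Cd22 and Jchain among them. Of these, 20.3% were listed at 0 in DOX/IgG1 replicate 1, and between 3.09% and 13.3% in the other 11 tumors.

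The tumors also differed in how many of all listed genes were at 0. Replicate 1 of every group and replicate 3 of DOX/anti-PD-1 had between 7611 and 8104 genes at 0, and the other 7 tumors between 6534 and 7111. Cd79a was above 0 in 0 of those 5 tumors and in 3 of the other 7, and Cd79b in 0 of 5 and in 4 of 7. Ms4a1 was above 0 in 1 of the 5 and in 3 of the 7. The part that these libraries have in the pattern of zeros was not tested.

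**Figure D1:**
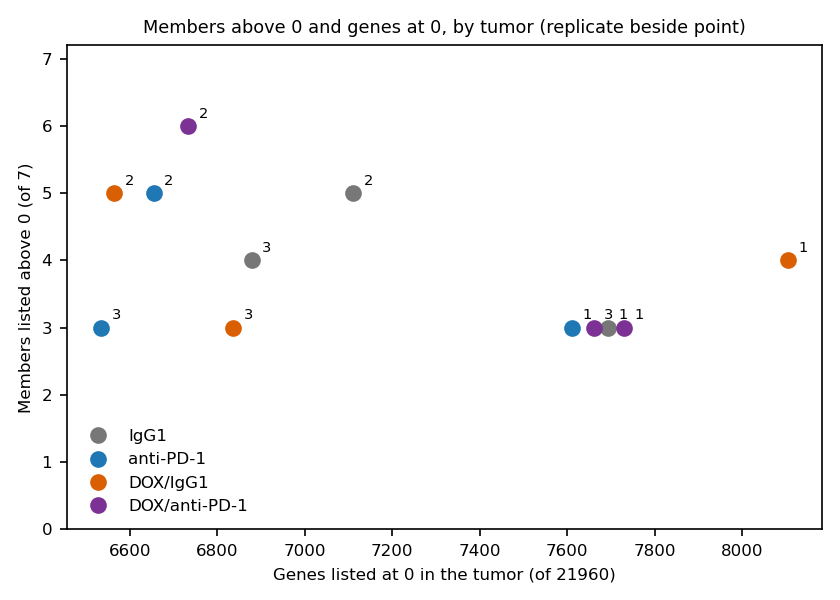
Number of the 7 genes listed above 0 (vertical axis) against the number of all 21960 genes listed at 0 (horizontal axis) in each tumor, with the replicate number beside each point and the group as its color. The 5 tumors with over 7500 genes at 0 have 3 or 4 of the 7 genes above 0, and the 7 others have between 3 and 6.

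The chains of the B cell receptor were close to the lower end of what the files list. Cd79a (ENSMUSG00000003379) lies on chromosome 7, from 24897381 to 24902197 on the forward strand of GRCm38. It was at 0.70 TPM in IgG1 replicate 2, at 0.58 TPM in DOX/IgG1 replicate 2 and at 1.11 TPM in DOX/anti-PD-1 replicate 2, and was listed at 0 in all 3 anti-PD-1 tumors and in the other 6. Each of the 3 groups with a value thus had it in 1 tumor of 3. Cd79b (ENSMUSG00000040592; chromosome 11, from 106311341 to 106314762, reverse strand) was at 1.79 TPM in IgG1 replicate 3, at 0.54 TPM in anti-PD-1 replicate 2, at 0.72 TPM in DOX/IgG1 replicate 2 and at 1.37 TPM in DOX/anti-PD-1 replicate 2. It was above 0 in 1 tumor of every group. The protein needs both chains, and the RNAs of both were above 0 together in 2 tumors, replicate 2 of DOX/IgG1 and of DOX/anti-PD-1.

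Ms4a1 (ENSMUSG00000024673; chromosome 19, from 11249675 to 11266241, reverse strand) was likewise above 0 in 1 tumor of each group. Its values were 0.39 TPM in IgG1 replicate 2, 0.24 TPM in anti-PD-1 replicate 2, 0.87 TPM in DOX/IgG1 replicate 1 and 0.78 TPM in DOX/anti-PD-1 replicate 2. DOX/anti-PD-1 replicate 2 was the tumor of the 12 in which Cd79a, Cd79b and Ms4a1 were all above 0.

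Cd22 (ENSMUSG00000030577; chromosome 7, from 30865402 to 30880342, reverse strand) was above 0 in all 12 tumors, with values from 0.57 to 10.65 TPM. The IgG1 tumors had 1.33, 1.5 and 3.39 TPM, and the anti-PD-1 tumors 1.01, 1.26 and 1.25 TPM. The DOX/IgG1 tumors had 2.47, 1.03 and 10.65 TPM, and the DOX/anti-PD-1 tumors 0.57, 9.27 and 2.77 TPM. The highest values were thus in 1 tumor of each DOX group, and both of these groups also held tumors within or below the range of the groups without DOX. Group means were 2.07 ± 1.14, 1.17 ± 0.142, 4.72 ± 5.19 and 4.20 ± 4.52 TPM (SD, n = 3) in the same order. No neighbors in the order of these means were farther apart than the larger of their SDs. The exons of Cd22 overlap those of Gm29439, an annotated antisense gene on the opposite strand that is not analysed here.

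Pax5 (ENSMUSG00000014030; chromosome 4, from 44524757 to 44710487, reverse strand) was low but above 0 in all tumors. It was at 1.13, 0.49 and 0.38 TPM in the IgG1 group and at 0.20, 0.23 and 0.79 TPM in the anti-PD-1 group. It was at 1.10, 0.20 and 0.49 TPM in the DOX/IgG1 tumors and at 0.68, 0.19 and 0.21 TPM in the DOX/anti-PD-1 tumors. The means were 0.667 ± 0.405, 0.407 ± 0.332, 0.597 ± 0.459 and 0.360 ± 0.277 TPM (SD, n = 3), and again no neighbors in their order were farther apart than the larger SD. It was at its lowest level of 0.19 TPM in DOX/anti-PD-1 replicate 2, where Cd79a, Cd79b and Ms4a1 were all above 0, and at 1.10 TPM in DOX/IgG1 replicate 1, where Ms4a1 was highest. Across the 12 tumors its Pearson r was -0.38 with Cd79a, -0.48 with Cd79b, 0.11 with Ms4a1 and -0.19 with Cd22, and the first 3 of these rest on many zeros. The exons of Pax5 overlap those of 2 annotated genes on the opposite strand, Gm12462 and 5730488B01Rik, which are not analysed here.

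The plasma cell genes did not vary as a pair. Jchain (ENSMUSG00000067149; chromosome 5, from 88519809 to 88527891, reverse strand) was at 3.88, 1.47 and 1.52 TPM with IgG1 alone and at 3.57, 1.37 and 6.58 TPM with anti-PD-1 alone. In the DOX/IgG1 tumors it was listed at 0 in replicate 1 and was at 7.32 and 14.74 TPM in replicates 2 and 3. In the DOX/anti-PD-1 tumors it was at 2.72, 2.92 and 1.23 TPM. The DOX/IgG1 group therefore held both the lowest and the highest value of the series, and every pair of groups overlapped. Mzb1 (ENSMUSG00000024353; chromosome 18, from 35647267 to 35649367, reverse strand) was above 0 in DOX/IgG1 replicate 1, at 2.62 TPM, and was listed at 0 in the other 11 tumors. That tumor is the one with Jchain at 0 and with the most genes at 0. The exons of Mzb1 overlap those of another protein-coding annotation on the same strand, SPATA24, so its single value is uncertain.

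**Figure D2:**
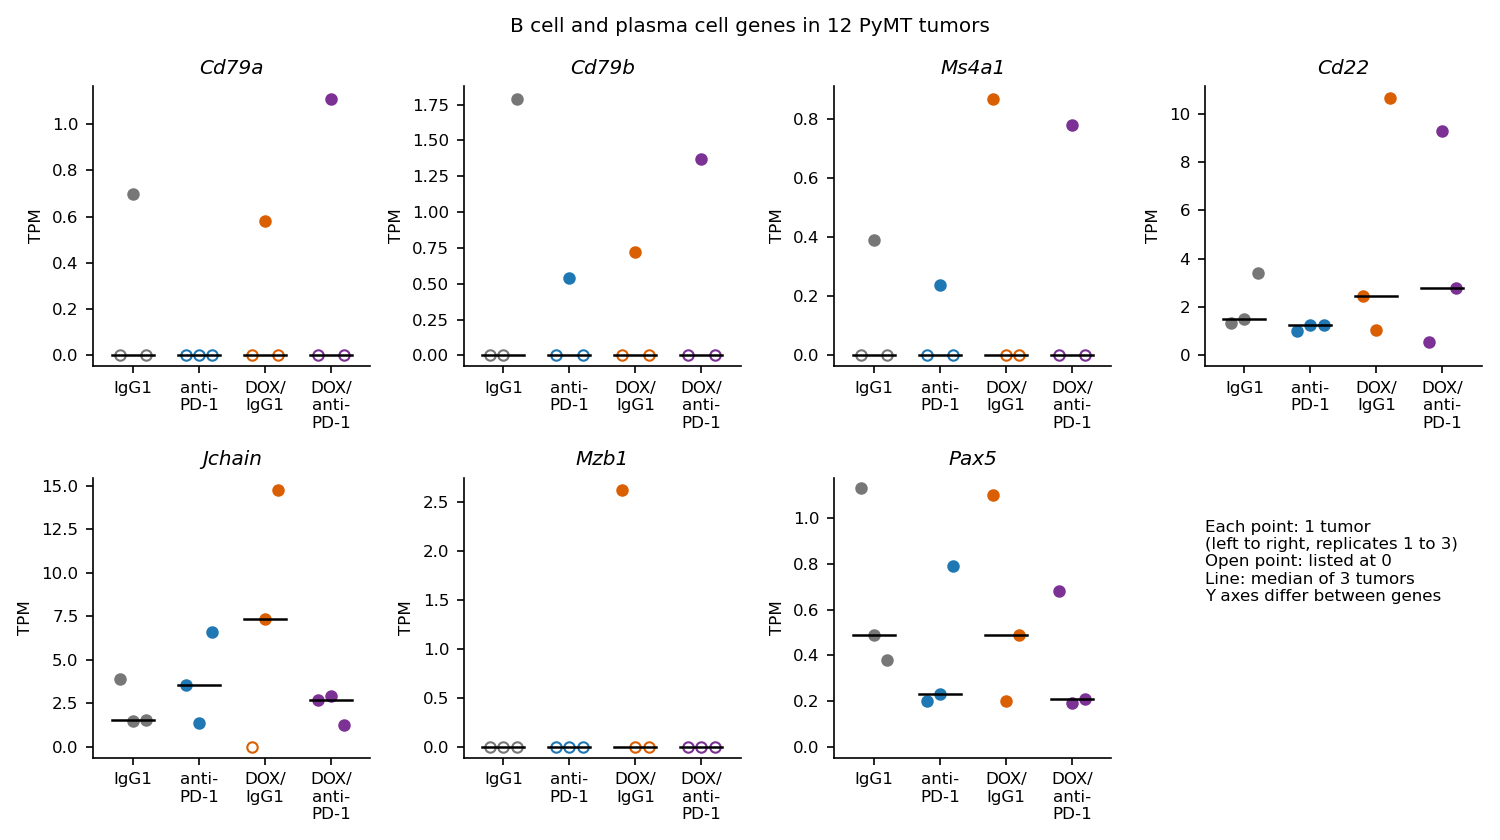
TPM of each of the 7 genes in the 12 tumors, by treatment group. Points are tumors in the order of replicates 1 to 3, open points are listed at 0, lines are medians of 3 tumors, and the vertical axes differ. Cd79a, Cd79b, Ms4a1 and Mzb1 have a median of 0 in every group, while Cd22 and Jchain reach 10.65 and 14.74 TPM in DOX/IgG1 replicate 3.

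Of the 5 B cell markers (Cd79a, Cd79b, Ms4a1, Pax5 and Cd22), between 2 and 5 were above 0 in a tumor, and Cd22 was the most abundant in 11 tumors and Pax5 in DOX/anti-PD-1 replicate 1. Their summed level ran from 1.21 TPM in anti-PD-1 replicate 1 to 12.72 TPM in DOX/anti-PD-1 replicate 2. The 5 markers were all above 0 in that tumor, and their sum was 11.14 TPM in DOX/IgG1 replicate 3, where Cd22 and Pax5 were above 0 and the other 3 were at 0. Tnfrsf17, the survival receptor of plasma cells, was listed at 0 in every tumor. The constant region genes of the immunoglobulins are not analysed here. Cd22 was 10.65 of the 11.14 TPM in DOX/IgG1 replicate 3 and 1.03 of the 2.53 TPM in DOX/IgG1 replicate 2.

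**Figure D3:**
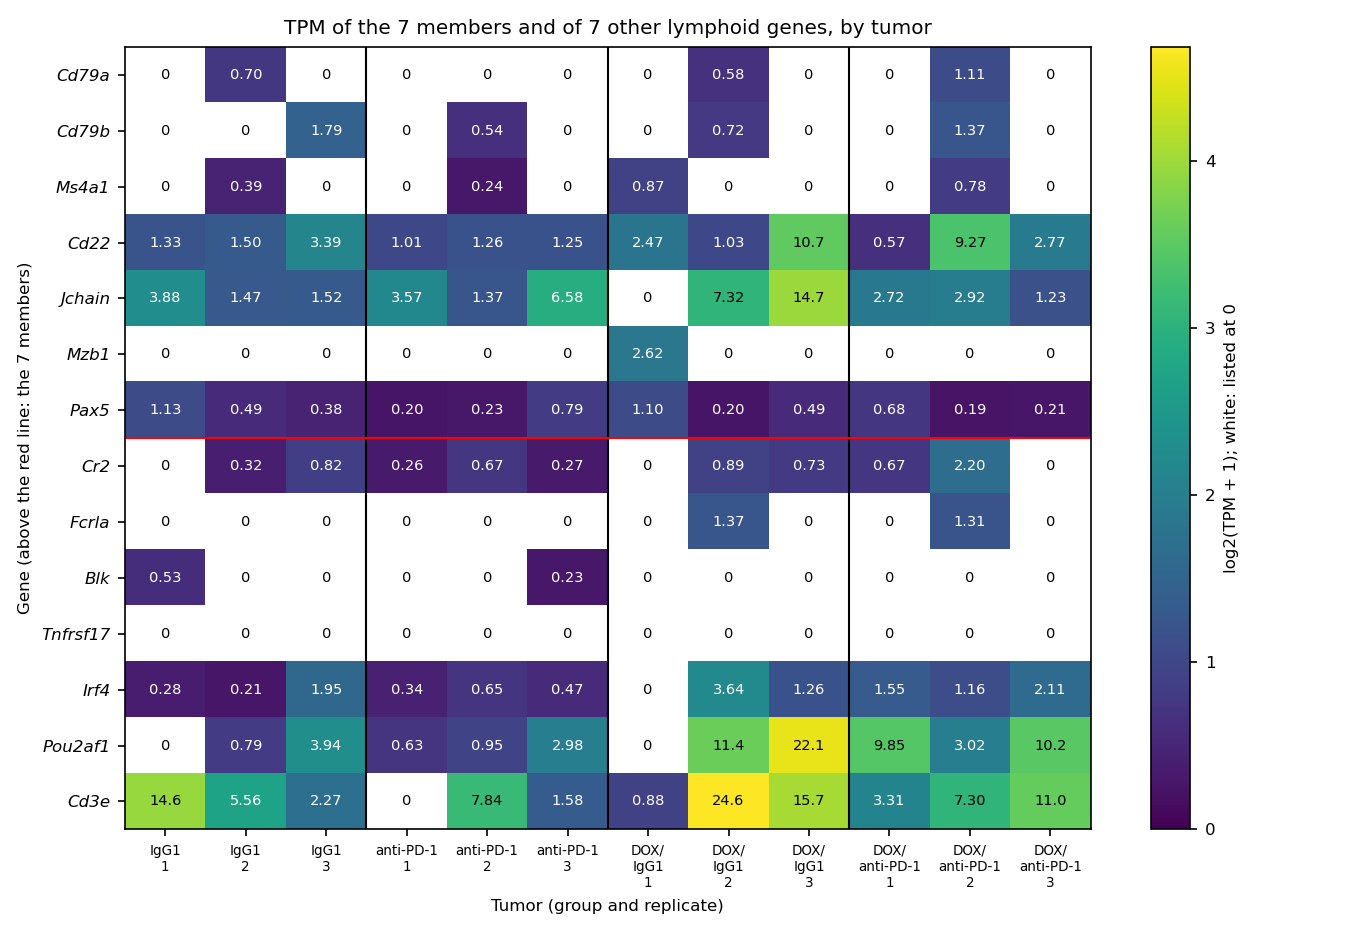
TPM (printed) and log2(TPM + 1) (color) of the 7 genes, above the red line, and of 7 other lymphoid genes in each tumor, with white cells listed at 0. DOX/anti-PD-1 replicate 2 has Cd79a, Cd79b and Ms4a1 above 0, and Tnfrsf17 is at 0 in all 12 tumors.

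Whether anti-PD-1 alone goes with a change in these genes was compared in the 6 tumors without DOX. Of the 7 genes, 2 (Cd22 and Jchain) reached 1 TPM in at least 3 tumors and could be tested across all genes with limma, and 0 passed an adjusted p below 0.1 with an absolute log2 fold change above 1. The other 5 genes are given as values. Of all 13692 genes tested, 0 (0%) passed. At an unadjusted p below 0.05 there were 630 of all genes and 0 of the 2. On the log2(TPM + 1) scale, where fold changes of low genes are understated, Cd22 differed by -0.44 (SE 0.45, 95% interval -1.45 to 0.57, adjusted p = 0.996) and Jchain by 0.48 (SE 0.53, 95% interval -0.69 to 1.65, adjusted p = 0.996). The 3 anti-PD-1 tumors all had less Cd22 than the 3 IgG1 tumors, with at most 1.26 TPM against at least 1.33 TPM, and an exact two-sided permutation test gave p = 0.1, the smallest that 3 tumors against 3 allow. Cd22 was the 1 gene of the 7 whose groups did not overlap, while 8.75% of the 17031 genes above 0 in these tumors were parted in this way. Cd79a, Cd79b, Ms4a1 and Mzb1 were listed at 0 in tumors of every group. They could therefore not part the groups in this or any other comparison of 2 groups.

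For anti-PD-1 in tumors also given DOX, the DOX/anti-PD-1 group was compared with DOX/IgG1. Here 0 of the 2 testable genes were called, against 0 (0%) of 13946, and 0 of the 2 had an unadjusted p below 0.05, against 655 of all genes. Cd22 differed by -0.14 (SE 0.85, 95% interval -2.09 to 1.80, adjusted p = 0.998) and Jchain by -0.67 (SE 0.94, 95% interval -2.82 to 1.48, adjusted p = 0.990). DOX/IgG1 held both low and high values of Cd22 and Jchain, and DOX/anti-PD-1 of Cd22. Without DOX/IgG1 replicate 1, the tumor with Jchain at 0, the difference in Jchain was -1.84 (adjusted p = 0.471). Without DOX/IgG1 replicate 3 the signs reversed, to 0.15 for Jchain and 0.57 for Cd22. Cd22 also reversed, to 0.52, without DOX/anti-PD-1 replicate 1. None of the 7 genes parted the groups, as 8.96% of 16990 genes did.

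DOX was compared in the same way. Between DOX/IgG1 and IgG1, 0 of the 2 genes and 5 (0.036%) of 13874 were called, and 0 and 1073 had an unadjusted p below 0.05. Cd22 differed by 0.56 (SE 0.68, 95% interval -0.98 to 2.10, adjusted p = 0.858) and Jchain by 0.70 (SE 0.93, 95% interval -1.41 to 2.82, adjusted p = 0.869). Without DOX/IgG1 replicate 3, the tumor with the highest values of both, the differences were -0.15 and -0.11. Without DOX/IgG1 replicate 1, Jchain differed by 1.87 (adjusted p = 0.189), and 122 of all genes were called. None of the 7 genes parted the groups, as 12% of 16985 genes did.

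With DOX/anti-PD-1 set against anti-PD-1, 0 of the 2 genes and 0 (0%) of 13736 were called, and 0 and 1185 had an unadjusted p below 0.05. Cd22 differed by 0.86 (SE 0.66, 95% interval -0.63 to 2.34, adjusted p = 0.726), by 0.16 without DOX/anti-PD-1 replicate 2 and by 1.52 (adjusted p = 0.491) without replicate 1. Jchain differed by -0.45 (SE 0.53, 95% interval -1.64 to 0.75, adjusted p = 0.834). The 7 genes overlapped between these groups, while 12.8% of 17068 genes did not. Cd22 was at 9.27 and 2.77 TPM in replicates 2 and 3 of DOX/anti-PD-1, above every anti-PD-1 tumor, and at 0.57 TPM in replicate 1, below all of them.

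With all 12 tumors in the fit, the 6 tumors given DOX were compared with the 6 not given DOX, with the antibody as a covariate. Of all 14735 genes tested, 3 (0.0204%) were called and 0 of the 2 testable genes, and 1765 and 0 had an unadjusted p below 0.05. Cd22 differed by 0.71 (SE 0.48, 95% interval -0.32 to 1.73, adjusted p = 0.586) and Jchain by 0.13 (SE 0.57, 95% interval -1.10 to 1.36, adjusted p = 0.955). The estimate for Jchain was -0.26 with a pseudocount of 0.1, -0.30 without DOX/IgG1 replicate 3, -0.093 without DOX/IgG1 replicate 2, and between -0.010 and -0.0020 without IgG1 replicate 2, IgG1 replicate 3 or anti-PD-1 replicate 2. Without DOX/IgG1 replicate 1, 212 of all genes and 0 of the 2 were called. For anti-PD-1, with DOX as a covariate, 0 (0%) of 14735 genes were called, and 691 of all genes and 0 of the 2 had an unadjusted p below 0.05. Cd22 differed by -0.29 (SE 0.48, adjusted p = 0.999) and Jchain by -0.10 (SE 0.57, adjusted p = 0.999).

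The interaction asks whether anti-PD-1 acts differently with DOX. It was called for 1 (0.00679%) of 14735 genes and for 0 of the 2, and 694 and 0 had an unadjusted p below 0.05. The estimate was 0.30 for Cd22 (SE 0.99, adjusted p = 0.995) and -1.15 for Jchain (SE 1.15, adjusted p = 0.993). The estimates for anti-PD-1 in Jchain had opposite signs, positive without DOX and negative with it, and the 95% interval of the interaction was -3.63 to 1.33. Without DOX/IgG1 replicate 1 the interaction for Jchain was -2.32 (adjusted p = 0.690), and without DOX/IgG1 replicate 3 it was -0.33. The negative estimate for anti-PD-1 with DOX turned to 0.15 without DOX/IgG1 replicate 3 and to 0.014 with a pseudocount of 0.1.

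**Figure D4:**
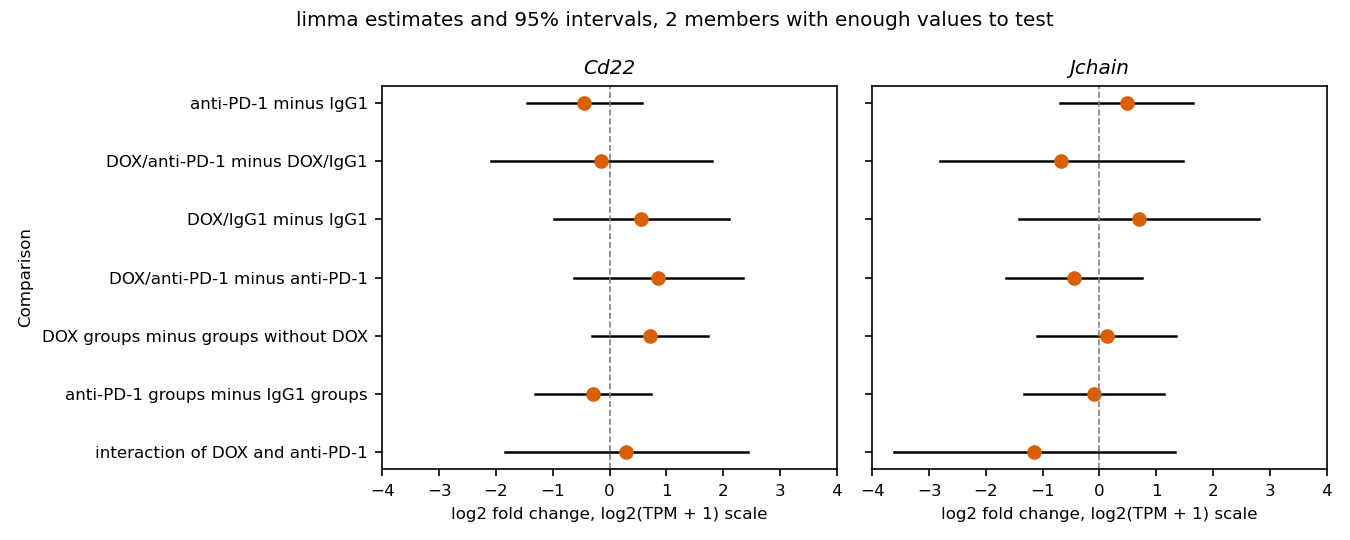
Differences in log2(TPM + 1) for Cd22 and Jchain in the 7 comparisons, with points for limma estimates and lines for 95% intervals. Every interval includes 0, and the widest, for the interaction in Jchain, runs from -3.63 to 1.33.

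Exact two-sided permutation tests were also made for each of the 7 genes, including the low ones. Over the 28 tests of 3 tumors against 3, p ranged from 0.1 to 1 without adjustment. Over the 14 tests of 6 tumors against 6, with arrangements made within the other treatment, the smallest exact p was 0.235, for Cd22 with DOX. The values of Cd22 and Jchain allow an exact p down to 0.005 in these tests and those of Pax5 down to 0.01 or 0.005. With their zeros, Cd79b and Ms4a1 cannot go below 0.08, Cd79a not below 0.2, and Mzb1 has an exact permutation p of 1 in any arrangement. Pax5 with anti-PD-1 had an exact permutation p of 0.25, with means of 0.383 TPM in the 6 anti-PD-1 tumors and 0.632 TPM in the 6 IgG1 tumors. Such p-values show neither a difference nor its absence.

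The wider pathways were described from lists of other genes. All 18 genes of the list of B cell receptor signaling were listed and 14 were above 0 in every tumor. The list is led by Cd81 and holds Ptpn6, Plcg2, Fcgr2b and Lyn, which other white cells express too. Of its 15 genes tested with all 12 tumors, 0 were called with DOX, and the median log2 fold change was 0.11, against 0.12 over all genes. At an unadjusted p below 0.05 there was 1 with a positive sign (Lyn) and 0 with a negative sign, against 8.82% and 3.16% of all genes. Lyn, a kinase that phosphorylates the receptor chains and Cd22, was at 41.4 ± 6.64 TPM in IgG1, 24.8 ± 3.41 in anti-PD-1, 50.3 ± 11.9 in DOX/IgG1 and 52.0 ± 9.48 in DOX/anti-PD-1 tumors (SD, n = 3). The limma estimate for DOX was 0.65 (SE 0.20, adjusted p = 0.241).

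Among the 13 genes of B lineage transcription, 12 were tested, 0 were called with DOX, and the median log2 fold change was 0.44, against 0.12 over all genes. Unadjusted p was below 0.05 for 4 of the 12 with a positive sign and for 0 with a negative sign, while 8.82% of all genes tested had the positive and 3.16% the negative result. The 4 were Foxo1 (0.52, adjusted p = 0.291), Bcl6 (0.52, adjusted p = 0.333), Tcf3 (0.36, adjusted p = 0.412) and Pou2af1, and 0 passed the limits in limma. Pou2af1 encodes a coactivator of immunoglobulin genes that B cells and plasma cells use. It was listed at 0 in IgG1 replicate 1 and was at 0.79 and 3.94 TPM in replicates 2 and 3, and it was at 0.63, 0.95 and 2.98 TPM in the anti-PD-1 tumors. In the DOX/IgG1 tumors it was listed at 0 in replicate 1 and was at 11.36 and 22.10 TPM in the others, and in the DOX/anti-PD-1 tumors it was at 9.85, 3.02 and 10.22 TPM. The DOX estimate was 1.71 (SE 0.66, adjusted p = 0.329), and without DOX/IgG1 replicate 1 it was 2.32 and passed the limits (adjusted p = 0.0495, within a range of 0.0495 to 0.507 over the alternatives). In that fit 212 of all 14735 genes were called. Pou2af1 reached the minimum level only with the tumors given DOX, where it was high. Its DOX results therefore partly restate the values above. Cd79a, Cd79b and Ms4a1 were all at 0 in DOX/IgG1 replicate 3, where Pou2af1 was highest.

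The 19 genes of the B cell surface had 9 that could be tested, 0 called with DOX, as 3 (0.0204%) of all 14735 were, and a median log2 fold change of 0.22, against 0.12 over all genes. At an unadjusted p below 0.05 there was 1 with a positive sign (Ly6d) and 0 with a negative sign, against 8.82% and 3.16% of all genes. Of its genes of B cell precursors, Vpreb3 and Dntt were at 0 in every tumor, and the others were above 0 in 1 tumor or, for Rag2, in 2. Vpreb1 was at 2.96 TPM in DOX/IgG1 replicate 3, Igll1 at 0.47 TPM in IgG1 replicate 2, Rag1 at 0.08 TPM in anti-PD-1 replicate 3, and Rag2 at 0.3 TPM in IgG1 replicate 3 and at 0.88 TPM in anti-PD-1 replicate 1. The abundant genes of the list, Cd24a, Cd74 and Ly6d, are also expressed by other cells. Ly6d was at 29.2, 79.17 and 121.74 TPM in the DOX/IgG1 tumors and between 10.52 and 45.77 TPM in the other 9. The DOX estimate in Ly6d was 1.18 (SE 0.33, adjusted p = 0.206), and it passed the limits without DOX/IgG1 replicate 1 (1.42, adjusted p = 0.0457, within a range of 0.0457 to 0.360 over the alternatives), a fit in which 212 of all genes were called.

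The 19 genes of the plasma cell list were mostly far above Jchain and Mzb1 in level. They are led by Hsp90b1 and Xbp1, which serve protein folding and secretion in many cells, the mammary epithelium among them. With DOX, 0 of the 17 tested were called. The median log2 fold change was -0.41, against 0.12 over all genes, and 7 of the 17 had an unadjusted p below 0.05 with a negative sign and 3 with a positive sign (Pou2af1, Cd38 and Slamf7), against 3.16% and 8.82% of all genes. Of these, Pou2af1 reached the minimum level only with the tumors given DOX. Between DOX/IgG1 and IgG1 the median of the 17 was -0.62, against 0.12 over all genes, with 6 negative and 1 positive at an unadjusted p below 0.05, against 2.7% and 5.03% of all genes. With DOX/anti-PD-1 set against anti-PD-1 it was 0.03, against 0.11, with 2 negative and 1 positive, against 2.33% and 6.3%. With DOX/anti-PD-1 set against DOX/IgG1 the median was 0.26, against -0.04 over all genes, with 1 negative (Prdm1) and 3 positive (Fkbp11, Derl3 and Xbp1) at an unadjusted p below 0.05, against 2.89% and 1.81%. For the interaction it was 0.38, against -0.01, with 0 negative and 4 positive (Fkbp11, Derl3, Xbp1 and Creld2), against 2.45% and 2.26%, and 0 of the 17 were called in either. The shorter list of 8 plasma cell markers had a median of 0.17 with DOX, with 4 of its 6 tested genes positive, Jchain among them. At an unadjusted p below 0.05 it had 0 positive genes and 2 negative ones, Xbp1 and Derl3. Xbp1, the transcription factor of the secretory program, was at 779.65, 1019.06 and 860.03 TPM in the IgG1 group and at 967.88, 1003.81 and 814.68 TPM in the anti-PD-1 tumors. It was at 303.0, 368.42 and 297.42 TPM in the DOX/IgG1 tumors and at 592.96, 718.05 and 543.70 TPM in the DOX/anti-PD-1 tumors. All 6 tumors given DOX were thus below all 6 others, and the share of all genes that part these tumors was not counted. The 3 DOX/anti-PD-1 tumors were above the 3 DOX/IgG1 tumors, a difference of 0.93 (adjusted p = 0.988). Between these 2 groups, 8.96% of 16990 genes did not overlap.

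For Xbp1, the DOX estimate was -1.02 (SE 0.19, adjusted p = 0.108), just outside the limit on p, and the adjusted p ran from 0.0493 to 0.253 over the alternatives. It passed the limits with the stricter minimum, with values rescaled by the median of ratios and without DOX/anti-PD-1 replicate 2. The interaction in Xbp1 was 0.86 (SE 0.32, adjusted p = 0.993). Sec11c, a subunit of the signal peptidase, was at 195.2 ± 3.21 TPM in IgG1, 223.6 ± 25.9 in anti-PD-1, 100.7 ± 13.3 in DOX/IgG1 and 135.8 ± 42.1 in DOX/anti-PD-1 tumors (SD, n = 3), with a DOX estimate of -0.86 (SE 0.17, adjusted p = 0.118). Edem1 (-0.58, adjusted p = 0.326) and Ssr4 (-0.59, adjusted p = 0.389), which serve quality control and import in the endoplasmic reticulum, had the same sign. Over all genes, the median log2 fold change for DOX was 0.12, and 0.01 with values rescaled by the median of ratios.

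**Figure D5:**
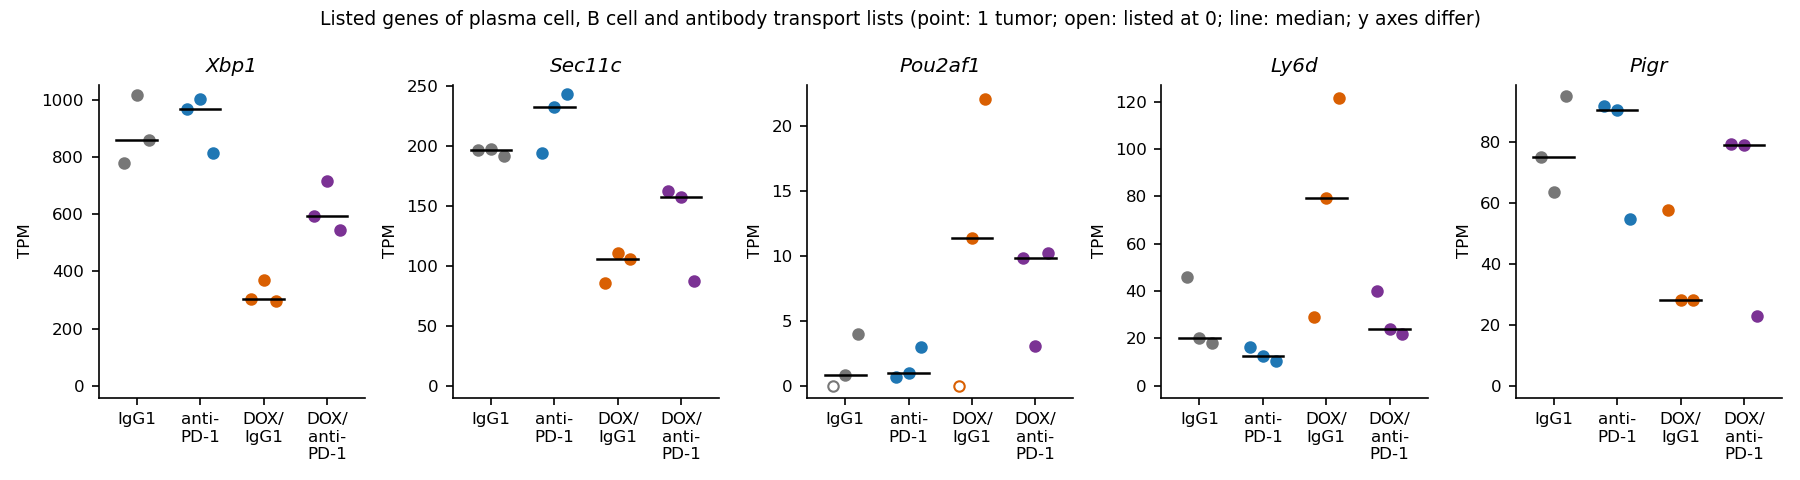
TPM of Xbp1, Sec11c, Pou2af1, Ly6d and Pigr by treatment group, with tumors as points in the order of replicates 1 to 3, open points listed at 0, lines at the median of 3 tumors and vertical axes that differ. Xbp1 is at 297.42 to 368.42 TPM in the DOX/IgG1 tumors and at 779.65 TPM or more in the tumors without DOX.

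Of the 21 genes of recruitment, survival and transport, 15 were tested, 0 were called with DOX, and the median log2 fold change was -0.12. At an unadjusted p below 0.05, 3 had a negative sign (Cxcl13, Pigr and Ccl21a) and 1 a positive sign (Fcgrt), against 3.16% and 8.82% of all genes. Cxcl13 and Ccl21a reached the minimum level only with the tumors not given DOX, where they were high. Their negative signs therefore partly restate their values. The median was 0.17 for DOX/IgG1 against IgG1 and 0.07 for DOX/anti-PD-1 against anti-PD-1, with 12 genes tested in either, and 0.12 and 0.11 over all genes. Cxcl13, the chemokine that draws B cells into follicles, was at 3.56, 0.90 and 1.87 TPM in the IgG1 group and at 1.46, 2.24 and 1.51 TPM in the anti-PD-1 tumors. In the DOX/IgG1 tumors it was listed at 0 in replicate 1 and was at 0.75 and 0.90 TPM in the others, and in the DOX/anti-PD-1 tumors it was at 2.15 TPM in replicate 2 and at 0 in the other tumors. The DOX estimate in Cxcl13 was -0.93 (SE 0.37, adjusted p = 0.344), with -2.41 (adjusted p = 0.348) at a pseudocount of 0.1 and -0.16 (adjusted p = 0.898) in the 7 tumors with up to 7500 genes at 0. DOX/anti-PD-1 replicate 2, the tumor with the most of the 7 genes above 0, was thus the tumor of its group with Cxcl13. That tumor had 6734 of all listed genes at 0, and replicates 1 and 3 of its group had 7730 and 7661. The part of this difference in these zeros was not tested. Cxcl13 was above 0 in every tumor without DOX, and none of those had Cd79a, Cd79b and Ms4a1 all above 0. Pigr, the antibody transporter of the epithelium, was at 77.9 ± 16.0 TPM in IgG1, 78.9 ± 21.1 in anti-PD-1, 37.9 ± 17.1 in DOX/IgG1 and 60.3 ± 32.5 in DOX/anti-PD-1 tumors (SD, n = 3), with a DOX estimate of -0.81 (SE 0.31, adjusted p = 0.326). Fcgrt, which recycles IgG, had a DOX estimate of 0.52 (SE 0.22, adjusted p = 0.368).

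Markers of other cell types stood beside these genes as follows. The 11 listed T cell markers, most abundantly Cd3e, summed to 66.89 and 54.47 TPM in replicates 2 and 3 of DOX/IgG1, the tumors with the highest Jchain, to 17.83 TPM in replicate 1, and to between 11.06 and 42.40 TPM in the other groups. The 7 markers of lymph node stroma, led by Ccl21a and including Cr2 and Fcer2a, which are also on the lists of B cell genes, ran from 0 TPM in DOX/IgG1 replicate 1 to 43.44 TPM in IgG1 replicate 3. They summed to 13.75 TPM in DOX/anti-PD-1 replicate 2 and to 17.96 TPM in DOX/IgG1 replicate 2, the tumors with both Cd79a and Cd79b above 0, and to 20.07 and 20.40 TPM in replicates 2 and 3 of anti-PD-1. The 8 plasma cell markers summed to between 378.29 and 1087.44 TPM. Xbp1 was the most abundant of them, at 303.0 of the 378.29 TPM in DOX/IgG1 replicate 1 and at 1003.81 of the 1087.44 TPM in anti-PD-1 replicate 2, and Tnfrsf17 was at 0 throughout. The 3 markers of all white cells, led by Ptprc, summed to between 115.74 and 265.46 TPM, the highest in DOX/IgG1 replicate 3. The 8 macrophage markers, led by Lyz2, ran from 415.33 to 730.42 TPM and the 9 markers of plasmacytoid dendritic cells, led by Irf7, from 277.45 to 650.69 TPM. The part of these cells in the values of Cd22, Jchain and Pou2af1 was not tested.

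Mammary epithelium is the tissue in which the promoter drives the oncogene. Its 9 markers, led by Epcam, summed to between 1642.97 TPM in DOX/IgG1 replicate 1 and 3543.96 TPM in IgG1 replicate 1. With DOX, 0 of the 9 were called, the median log2 fold change was -0.24, against 0.12 over all genes, and at an unadjusted p below 0.05 there were 3 with a negative sign (Lalba, Wap and Epcam) and 1 with a positive sign (Krt19), against 3.16% and 8.82% of all genes. Epcam was at 912.4 ± 58.4 TPM in IgG1, 793.3 ± 104.4 in anti-PD-1, 501.8 ± 75.6 in DOX/IgG1 and 707.3 ± 227.2 in DOX/anti-PD-1 tumors, and Lalba, a milk protein gene, at 318.0 ± 73.1, 563.7 ± 360.6, 67.1 ± 64.0 and 313.6 ± 144.2 TPM in the same order (SD, n = 3). For DOX/anti-PD-1 against DOX/IgG1 the median of the 9 was 0.36, against -0.04 over all genes, with 5 of the 9 positive. At an unadjusted p below 0.05, 3 were positive and 0 negative, against 1.81% and 2.89% of all genes. For the interaction the median was 0.34, against -0.01, with 8 of the 9 positive. At that limit 1 was positive and 0 negative, against 2.26% and 2.45%. The part of the epithelium in the values of Xbp1, Sec11c and Pigr was not tested. Other tissues may be carried along with a mammary tumor. The 6 adipocyte markers, led by Adipoq, ran from 36.11 TPM in IgG1 replicate 1 to 509.09 TPM in DOX/anti-PD-1 replicate 1. With DOX, 0 of the 6 were called and all 6 had a positive estimate, with a median of 1.00 and an unadjusted p below 0.05 for 2 of them, Retn and Fabp4. For DOX/anti-PD-1 against anti-PD-1 the median was 1.43, with an unadjusted p below 0.05 for 5 of the 6, all but Cidec, against 6.3% of all genes with a positive sign. For DOX/IgG1 against IgG1 the median was 0.45, with 5 of the 6 positive. There 0 had an unadjusted p below 0.05, against 5.03% of all genes with a positive sign. The 5 markers of skeletal muscle, led by Acta1, ran from 0 in DOX/anti-PD-1 replicate 2 to 669.20 TPM in DOX/anti-PD-1 replicate 1. The 11 listed markers of salivary gland, led by Amy1, summed to 70.21, 129.46 and 148.88 TPM in the DOX/IgG1 tumors and to between 17.63 and 57.01 TPM in the other 9. Between DOX/IgG1 and IgG1, 7 of the 9 tested were positive, with a median of 0.97. At an unadjusted p below 0.05, 3 were positive and 1 negative, against 5.03% and 2.7% of all genes. With DOX, 0 were called and 5 of the 9 were positive. At that limit 3 were positive and 1 negative, against 8.82% and 3.16%. Bhlha15 was at 20.3 ± 8.15 TPM in IgG1 and 8.26 ± 3.49 TPM in DOX/IgG1 tumors (SD, n = 3). Of these markers, Bpifa2 was at 14.43, 21.34 and 53.73 TPM in the DOX/IgG1 tumors and at 0 in the other 9, and Smr3a was at 16.58, 10.22 and 14.80 TPM there, at 2.76 TPM in anti-PD-1 replicate 3 and at 0 in the other 8. Both were among the 5 genes called in limma between DOX/IgG1 and IgG1 (adjusted p = 0.0334 each). In this comparison both reached the minimum level only through the DOX/IgG1 tumors, and both were chosen after their values were seen. Their calls therefore restate the values above and are no separate evidence. Neither passed without any 1 of the 3 IgG1 tumors or without DOX/IgG1 replicate 2 or 3, with adjusted p between 0.125 and 0.317, or with the replicate block (0.163 for Smr3a and 0.113 for Bpifa2). Smr3a did not pass with a pseudocount of 0.1 (adjusted p = 0.135) or a minimum of 5 TPM (adjusted p = 0.246). Bpifa2 was the gene called for the interaction (adjusted p = 0.0909, within a range of 0.0332 to 0.997 over the alternatives). It again reached the minimum level only through the DOX/IgG1 tumors, so this call restates its values too. Salivary glands also hold plasma cells, and Jchain was at 7.32 and 14.74 TPM in the tumors with the highest salivary sums and at 0 in the tumor with 70.21 TPM. The part of these tissues in the levels of Jchain and Cd22 was not tested.

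The genes most alike in pattern were looked for among 14733 genes by the Pearson correlation of log2(TPM + 1) over the 12 tumors, as a description without a test. With the summed level of Cd79a, Cd79b, Ms4a1, Cd22 and Pax5, of which Cd22 has the highest mean level, the highest r was that of Fryl at 0.885 (Spearman rho 0.930, r 0.881 without the 2 tumors farthest from the median). Mtfmt followed with 0.875 (rho 0.888, r 0.912 without those tumors) and Cabin1 with 0.873 (rho 0.860, r 0.736). With the sum of Jchain and Mzb1, with Mzb1 at 0 in 11 tumors, they were Polg2 at 0.935 (rho 0.832, r 0.820), Dnase1l3 at 0.923 (rho 0.902, r 0.764) and Sycp1 at 0.885 (rho 0.762, r 0.688). None of the 10 most alike genes of either sum is on the lists of B cell or plasma cell genes. Between the members, Cd79a and Ms4a1 had r 0.50, Cd79a and Cd79b 0.42, and Cd79b and Ms4a1 0.17. Ms4a1 and Mzb1 had r 0.63, Ms4a1 and Jchain -0.57, and Jchain and Mzb1 -0.58. All of these rest on many zeros. Cd22 and Jchain had r 0.21 and rho -0.13.

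Promoter sequences, from 250 bases before to 50 bases after the start in RefSeq (GRCm38.p6), were at hand for 4 of the 7 genes, Cd79a, Cd22, Jchain and Pax5. They were searched on both strands for ATTTGCAT, the octamer of immunoglobulin promoters that Pou2af1 works through, and for CCCNNGGG, a word of the lineage factor EBF. The octamer was in 0 of the 4 and in 1.74% of 32851 promoters, and the EBF word was in 1 of the 4, Cd22, and in 13.7% of all. The windows of Cd22 and Jchain, the genes that could be tested, are shown 5′ to 3′, with the match in capitals. The window of Cd22 lies within the annotated gene, downstream of its first annotated base. A match is a description of these letters and not a site of binding.
Cd22, chr7:30878979-30879278, reverse strand: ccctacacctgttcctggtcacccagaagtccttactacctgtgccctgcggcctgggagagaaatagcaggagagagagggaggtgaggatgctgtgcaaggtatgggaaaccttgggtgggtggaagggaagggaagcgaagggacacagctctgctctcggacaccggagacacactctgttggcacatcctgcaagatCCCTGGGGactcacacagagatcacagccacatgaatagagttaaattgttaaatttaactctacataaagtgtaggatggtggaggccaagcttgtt
Jchain, chr5:88527848-88528147, reverse strand: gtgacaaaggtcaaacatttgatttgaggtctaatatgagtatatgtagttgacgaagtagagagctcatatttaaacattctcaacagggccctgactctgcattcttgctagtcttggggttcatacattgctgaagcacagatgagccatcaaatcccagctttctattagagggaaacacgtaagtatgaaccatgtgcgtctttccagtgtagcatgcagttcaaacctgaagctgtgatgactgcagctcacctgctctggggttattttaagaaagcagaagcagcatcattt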

How the data were processed

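RNA from 12 whole tumors, 3 in each of 4 treatment groups, was sequenced by the authors from stranded total RNA libraries on 1 end. Reads had been trimmed (skewer), aligned to mm10 (STAR) and turned into gene levels (RSEM). The deposited values are log2(TPM + 1), a log2 scale with decimal commas, for 21960 genes per tumor. They were turned back into TPM, which summed to between 609418 and 725506 in a tumor, so some of the genes quantified are not in the list. No counts are given, so depth and counting error are unknown. The column headers of the DOX/anti-PD-1 files carry a different tag (Cov.2) from the other 9 (Cov.1), whose meaning is not given in the sources used here and cannot be told apart from the group. The header of DOX/IgG1 replicate 1, the tumor with the most genes at 0, also carries the word test, whose meaning is not given.

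Genes with at least 1 TPM in 3 or more tumors of a comparison, a choice kept where tumors were left out, were tested on log2(TPM + 1) with limma 3.58.1 (R 4.3.3; lmFit, eBayes with trend, two-sided), with Benjamini-Hochberg adjustment over all genes tested. A call needed an adjusted p under 0.1 with a log2 fold change beyond 1 in either direction. The code was tested on simulated data. Single members were also compared with exact two-sided permutation tests (Python 3.11.15), whose p-values are given without adjustment. Coordinates and overlaps came from GENCODE vM21, which held 21860 of the listed genes. The members and lists were chosen with earlier results of these data known. From each list, genes above 0 in at least 6 tumors could be named, at most 6 by highest mean TPM, together with Pou2af1, Tnfrsf17, Pigr and Cxcl13, and the marker lists gave their most abundant gene. Another gene of the lists is not reported here. Fcer2a, the 6 precursor genes, Ccl21a beside Cxcl13, the epithelial markers beside Epcam, the adipocyte markers beside Adipoq, Cd38, Slamf7, Derl3, Prdm1, Fkbp11, Creld2, Bhlha15, Bpifa2 and Smr3a, and Cr2, Fcrla, Blk and Irf4 in the plot by tumor, were chosen after their values were seen. Alternatives were a pseudocount of 0.1, no minimum, a minimum of 5 TPM, scaling by the median of ratios, all tumors in 1 fit, a replicate block and leaving out each tumor. The fit to the 7 tumors with up to 7500 genes at 0 was added after seeing the data.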

Additional observations from a re-analysis of the deposited data

How the results depend on the processing

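The number of the 7 genes called was 0 in all fits of the 7 comparisons in which at least 1 of them could be tested, 42 with another setting and 60 that left out 1 tumor. With the minimum of 5 TPM, 0 of the 7 could be tested in the 4 comparisons of 2 groups and 1 in the other 3. At an unadjusted p below 0.05, 1 of the 2 testable genes was found in 6 of these fits, 4 of them without 1 tumor. Without DOX/IgG1 replicate 1 the gene was Jchain, beside 1804 of 13874 genes for DOX/IgG1 against IgG1. For DOX/anti-PD-1 against DOX/IgG1 it stood beside 1051 of 13946, and for the interaction beside 951 of 14735. Without DOX/anti-PD-1 replicate 1 the gene was Cd22 for DOX/anti-PD-1 against anti-PD-1, beside 1365 of 13736 genes. Replicate numbers were not taken as pairs, since deviations of tumors with the same number correlated between -0.10 and 0.15, and with the replicate block the count of called genes among the 7 was again 0. The block gave 2 called genes in place of 5 over all genes for DOX/IgG1 against IgG1, 1 in place of 3 for DOX and 0 in place of 1 for the interaction. The directions of Cd22 and Jchain were less stable. With a pseudocount of 0.1, Jchain reversed to 0.014 for DOX/anti-PD-1 against DOX/IgG1, to -0.26 for DOX and to 0.31 for anti-PD-1. It also moved from 0.70 to 0.040 for DOX/IgG1 against IgG1 and from -1.15 to -0.60 for the interaction, and Cd22 from -0.14 to -0.26 for DOX/anti-PD-1 against DOX/IgG1 and from -0.29 to -0.46 for anti-PD-1. With the median of ratios, Jchain moved from 0.13 to 0.035 for DOX. In the 7 tumors with up to 7500 genes at 0, an alternative chosen after seeing the data that leaves 1 tumor in DOX/anti-PD-1, which is assumed to vary like the others, Cd22 reversed to 1.08 for DOX/anti-PD-1 against DOX/IgG1 and to 0.10 for anti-PD-1. There Cd22 moved to 2.19 (adjusted p = 0.533) for DOX/anti-PD-1 against anti-PD-1, and Jchain to 2.20 (adjusted p = 0.144) for DOX/IgG1 against IgG1 and to 1.27 for DOX. Cd22 also moved to 1.21 for DOX and to 1.63 for the interaction, and Jchain to -1.55 for DOX/anti-PD-1 against DOX/IgG1, to -0.11 for DOX/anti-PD-1 against anti-PD-1, to 0.76 for anti-PD-1 against IgG1, to -0.16 for anti-PD-1 and to -2.31 for the interaction. Txndc5, a folding enzyme of the plasma cell list with a DOX estimate of -0.23, reversed to 0.038 there, and the DOX estimates of Tcf3, Ssr4 and Ly6d moved from 0.36 to 0.20, from -0.59 to -0.37 and from 1.18 to 1.78. The cause was not tested.

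With each tumor left out in turn, Cd22 ran from -0.84 to 0.57 and Jchain from -1.84 to 0.15 for DOX/anti-PD-1 against DOX/IgG1, and from -0.15 to 1.11 and from -0.11 to 1.87 for DOX/IgG1 against IgG1. For DOX, Jchain ran from -0.30 to 0.59. For anti-PD-1, Cd22 ran from -0.62 to 0.0070 and Jchain from -0.55 to 0.33, and for the interaction Cd22 ran from -0.40 to 1.01. The other estimates of these genes and the DOX estimates given for list genes kept their sign without 1 tumor, as did those of Xbp1 for DOX/anti-PD-1 against DOX/IgG1 (0.82 to 1.03) and the interaction (0.75 to 0.96). Cd22 ran from -0.61 to -0.15 and Jchain from 0.08 to 0.92 for anti-PD-1 against IgG1, and from 0.16 to 1.52 and from -0.88 to -0.04 for DOX/anti-PD-1 against anti-PD-1. For DOX, Cd22 ran from 0.38 to 0.99, and for the interaction Jchain ran from -2.32 to -0.33. Counts over all genes moved by more than 1.5 times in some fits. For DOX the count of 3 was 13 with the minimum of 5 TPM, 14 with the median of ratios and 20 in the 7 tumors. For the interaction the count of 1 was 3 with no minimum, 0 with a pseudocount of 0.1, a minimum of 5 TPM or the median of ratios, and 5 in the 7 tumors. For DOX/anti-PD-1 against DOX/IgG1 the count of 0 was 3 with the median of ratios and 2 with all 12 tumors in 1 fit. In the 7 tumors it was 118 in place of 5 for DOX/IgG1 against IgG1, 5 in place of 0 for anti-PD-1 against IgG1 and 1 in place of 0 for anti-PD-1. Without 1 tumor, counts ran from 0 to 122 for DOX/IgG1 against IgG1, from 0 to 212 for DOX, from 0 to 4 for each of the other comparisons of 2 groups and from 0 to 1 for the interaction. Depth is unknown, and for genes near 1 TPM a value of 0 cannot be told apart from a low level.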
